A study of Equus caballus with 68 samples.

Results

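The interval from 48 to 96 hours of culture in inflamed synovial fluid (ISF) was followed in bone marrow mononuclear cells (BMNC) of horses. Its members were chosen by label, as every library of cells cultured in ISF for 48 hours (7 libraries) or 96 hours (8 libraries), which is 15 of the 68 libraries of the study, and 7 horses gave both. Moon had an ISF library at 96 hours only. The 8 horses were adult Thoroughbreds aged 3 to 9 years, 6 geldings and 2 females (Moon and RimRun). BMNC, the density gradient fraction of bone marrow that holds mononuclear cells, were cultured in the horse's own fluid, from which the native cells had been removed. ISF came from radiocarpal joints of the same horse inflamed with lipopolysaccharide, and the comparison fluid, healthy synovial fluid (SF), from its middle carpal joints. Fluid was topped up every 48 hours, so that the cells compared at 96 hours had received fresh fluid since 48 hours. Each library stands for 1 horse, 1 fluid and 1 time point, no animals were pooled, and no second culture of the same horse, fluid and time was sequenced.

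In an inflamed joint, microbial products and interleukin-1 activate NF-kappaB, a family of transcription factors that is held in the cytoplasm by inhibitory proteins and that drives cytokine, chemokine and receptor genes as well as its own inhibitors. Monocytes that enter the joint mature into macrophages, which take up dying cells and lipid, digest them in lysosomes and pass cholesterol on to carriers. Nuclear receptors of the PPAR and LXR families, with RXR as their partner, respond to lipid in such cells.

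The values are GeTMM, reads per kilobase of gene relative to the library and scaled between libraries, so that levels may be compared between genes as well as between libraries. A log2 fold change is the difference of group means of log2(GeTMM + 1) at 96 hours minus 48 hours, a scale that understates the change of genes near or below 1 GeTMM, and its error is the SE of the limma fit. The libraries held 19.1 to 26.3 M reads on genes at 48 hours and 16.9 to 25.2 M at 96 hours. In a check over the most horse-specific genes, the 96-hour ISF library labelled Dealings was closest to the other libraries of Dreamer (r = 0.936, own horse -0.284), and that labelled Dreamer closest to those of Dealings (r = 0.916, own horse -0.224), whereas the other 66 libraries were closest to their own horse. Both libraries belong to the same group, so that the main test, which does not use the horse, is the same whichever horse each came from. Tests with the horse as a block and distances between the libraries of a horse were also taken without them. Counts of horses in which a gene rose or fell use the libraries as labelled, with both included. Leaving out a horse removed the libraries that carry its name. Without Dealings or Dreamer, the 96-hour ISF library removed may therefore belong to the other of these horses. The library labelled Dreamer also stood apart in composition, with 26.7% of its reads on its 10 highest genes against 9.10% to 16.9% in the other libraries at 96 hours. A bulk library cannot tell fewer cells of a type from less RNA per cell.

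Of 14570 genes tested, 2764 changed from 48 to 96 hours at an FDR under 0.05, which is 19% of the genes tested. Of these, 1245 (8.54%) were higher and 1519 (10.4%) lower at 96 hours. The median log2 fold change over all genes tested was 0.01. Changes of at least 1 on the log2 scale were called for 217 higher (1.49%) and 419 lower (2.88%) genes. The groups did not overlap for 6.3% of all genes, 2.42% higher and 3.88% lower at 96 hours, and 13.4% of all genes were higher and 13.1% lower in 7 of 7 horses. Without the 96-hour libraries labelled Dealings and Dreamer, 1978 genes were called (13.6%), of which 1950 were among the 2764. With the horse as a block and without these libraries, 2755 were called.

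Among the 10 genes named for the largest rise, VCAM1 came first. VCAM1 (ENSECAG00000016735), an adhesion molecule that binds leukocyte integrins, lay between 3.27 and 194 GeTMM (median 32.9) at 48 hours and between 91.6 and 761 GeTMM (median 226) at 96 hours. It was higher at 96 hours in 7 of 7 horses, although the groups overlapped (log2 fold change of 3.08 ± 0.57 (SE), FDR = 4.53e-05). SDC2, a cell surface heparan sulfate proteoglycan, lay between 0.31 and 14.9 GeTMM (median 2.03) at 48 hours and between 3.53 and 103 GeTMM (median 33.2) at 96 hours (log2 fold change of 2.79 ± 0.50 (SE), FDR = 2.86e-05), again with overlapping groups. ADAMTS1, a secreted metalloproteinase that cleaves proteoglycans, had a log2 fold change of 2.50 ± 0.46 (SE), FDR = 4.62e-05. Among the other genes with the largest rise were IGFBP4 (an insulin-like growth factor binding protein), NXPH3, SLAMF9 (a receptor of the SLAM family), FAM149A, DIPK2A and CCL8, with log2 fold changes between 2.00 and 2.29. All 10 rose in 7 of 7 horses, as the rule that named them required. Without the 96-hour libraries labelled Dealings and Dreamer, the calls of IGFBP4 (FDR = 0.0747) and SLAMF9 (FDR = 0.132) were lost.

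Falls reached a similar size. IL22RA2 (ENSECAG00000008817), a soluble receptor that binds interleukin-22, lay between 23.4 and 224 GeTMM (median 72.3) at 48 hours and between 1.73 and 25.7 GeTMM (median 7.85) at 96 hours (log2 fold change of -3.04 ± 0.47 (SE), FDR = 2.05e-06). The highest library at 96 hours lay just above the lowest at 48 hours. CA12, a membrane carbonic anhydrase, fell from between 127 and 336 GeTMM to between 14.1 and 91.6 GeTMM without overlap of the groups (log2 fold change of -2.97 ± 0.47 (SE), FDR = 3.05e-06). MMP1, interstitial collagenase, which cleaves fibrillar collagen, lay between 1413 and 3576 GeTMM (median 2292) at 48 hours and between 129 and 819.5 GeTMM (median 551) at 96 hours. Every library at 96 hours was below every library at 48 hours for MMP1 (log2 fold change of -2.33 ± 0.48 (SE), FDR = 0.000244). A pair of acyltransferases of triglyceride synthesis, DGAT2 (-2.70, FDR = 4.22e-06) and MOGAT2 (-2.49, FDR = 1.52e-07), fell as well, and so did GPT2, a mitochondrial alanine aminotransferase (-2.37, FDR = 3.98e-09). HBA2, a hemoglobin chain, had a mean of 66.3 ± 76.9 GeTMM (SD, n = 7) at 48 hours and 7.32 ± 8.98 GeTMM (SD, n = 8) at 96 hours (log2 fold change of -2.83 ± 0.72 (SE), FDR = 0.00298). IL18RAP, IL18R1 and MPO completed the 10 genes with the largest fall.

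Several genes of the NF-kappaB pathway fell. Of 21 genes tested, 10 fell and 1 rose, against 10.4% lower and 8.54% higher over all genes, and the median log2 fold change was -0.49 against 0.01 over all genes. NFKBIA (ENSECAG00000023420), the inhibitor that NF-kappaB itself induces, lay between 169 and 298 GeTMM (median 198) at 48 hours and between 59.4 and 130.1 GeTMM (median 102) at 96 hours. The groups did not overlap, and the fall was seen in 7 of 7 horses (log2 fold change of -1.16 ± 0.27 (SE), FDR = 0.000883). The inhibitory deubiquitinase TNFAIP3 lay between 6.07 and 13.8 GeTMM (median 9.83) at 48 hours and between 3.65 and 6.96 GeTMM (median 5.17) at 96 hours (log2 fold change of -0.86 ± 0.25 (SE), FDR = 0.00997), with groups that overlapped. NFKBIZ, a nuclear member of the inhibitor family (-1.29, FDR = 1.77e-06), MAP3K14, the kinase that starts the noncanonical branch (-0.99, FDR = 0.000175), and BIRC3, a ubiquitin ligase of the TNF receptor complex (-0.88, FDR = 0.0017), fell too.

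Among the NF-kappaB subunits, RELA (ENSECAG00000013763) lay between 92.4 and 138 GeTMM (median 117) at 48 hours and between 66.2 and 86.4 GeTMM (median 76.6) at 96 hours. Its groups did not overlap (log2 fold change of -0.56 ± 0.15 (SE), FDR = 0.00453). NFKB2 fell from 51.5 ± 12.2 GeTMM (SD, n = 7) to 33.0 ± 6.70 GeTMM (SD, n = 8), with overlap between the groups (log2 fold change of -0.62 ± 0.15 (SE), FDR = 0.00218). REL was also lower (-0.75, FDR = 0.0146). Without the 96-hour libraries labelled Dealings and Dreamer the list still had 10 lower and 1 higher. RELB (-0.49, FDR = 0.109) and NFKB1 (-0.15, FDR = 0.662) did not pass the test. Of the kinases that release NF-kappaB from its inhibitors, IKBKB was lower (-0.74, FDR = 0.000583) and IKBKE, a related kinase also known for interferon signaling, was the 1 gene of the list that was higher (0.49, FDR = 0.00476).

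In the interleukin-1 family, 10 of 18 genes fell and none rose (0 higher at an unadjusted p under 0.05 by limma, and 0 by limma voom on recovered reads), with a median log2 fold change of -0.65. Over all genes, 10.4% fell. Leaving out 1 horse gave 7 lower without Dreamer, 8 without Ollie and 9 or 10 otherwise, and 1 higher without Moon. The cytokine IL1B (ENSECAG00000000051) lay between 9.14 and 39.1 GeTMM (median 25.4) at 48 hours and between 2.61 and 9.72 GeTMM (median 7.21) at 96 hours. It was lower in 7 of 7 horses, and only a small overlap remained between the groups (log2 fold change of -1.52 ± 0.32 (SE), FDR = 0.000327). Its mean was 14.4 GeTMM before culture and 2.08 GeTMM at 6 days in ISF. IL1RN (ENSECAG00000027864), the antagonist that occupies the receptor of interleukin-1, moved in the same direction and lay between 62 and 525.6 GeTMM (median 152) at 48 hours and between 23.7 and 143 GeTMM (median 55.3) at 96 hours. The library of RimRun was highest at 48 hours, and the groups overlapped (log2 fold change of -1.56 ± 0.39 (SE), FDR = 0.0027). IL18 fell as well (log2 fold change of -0.96 ± 0.28 (SE), FDR = 0.00975), as did IL1A, which was low at both times (-0.64, FDR = 0.00344).

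The 3 largest falls of the family were of receptor chains. IL18RAP (ENSECAG00000000214), the accessory chain of the interleukin-18 receptor, lay between 39.6 and 80.9 GeTMM (median 62.1) at 48 hours and between 2.36 and 24.3 GeTMM (median 11) at 96 hours. Its partner IL18R1 lay between 6.95 and 19.2 GeTMM (median 9.95) at 48 hours and between 0.317 and 3.12 GeTMM (median 1.18) at 96 hours. Neither gene had overlapping groups (log2 fold change of -2.39 ± 0.46 (SE), FDR = 8.42e-05 for IL18RAP, and log2 fold change of -2.33 ± 0.30 (SE), FDR = 5.7e-08 for IL18R1). IL1RAP, the shared accessory chain of the interleukin-1 receptors, lay between 18.2 and 50.1 GeTMM (median 31.2) at 48 hours and between 6.98 and 14.1 GeTMM (median 7.69) at 96 hours, without overlap (log2 fold change of -1.89 ± 0.25 (SE), FDR = 6.68e-08). IL1R1 (-1.05, FDR = 0.00707), IRAK3, a brake on signaling downstream of the receptors (-1.56, FDR = 2.13e-05), and IRAK2 (-0.45, FDR = 0.0447) were also lower. The inflammasome genes NLRP3 (0.22, FDR = 0.699), PYCARD (0.37, FDR = 0.191) and CASP1 (-0.34, FDR = 0.201) did not pass the test.

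**Figure D1:**
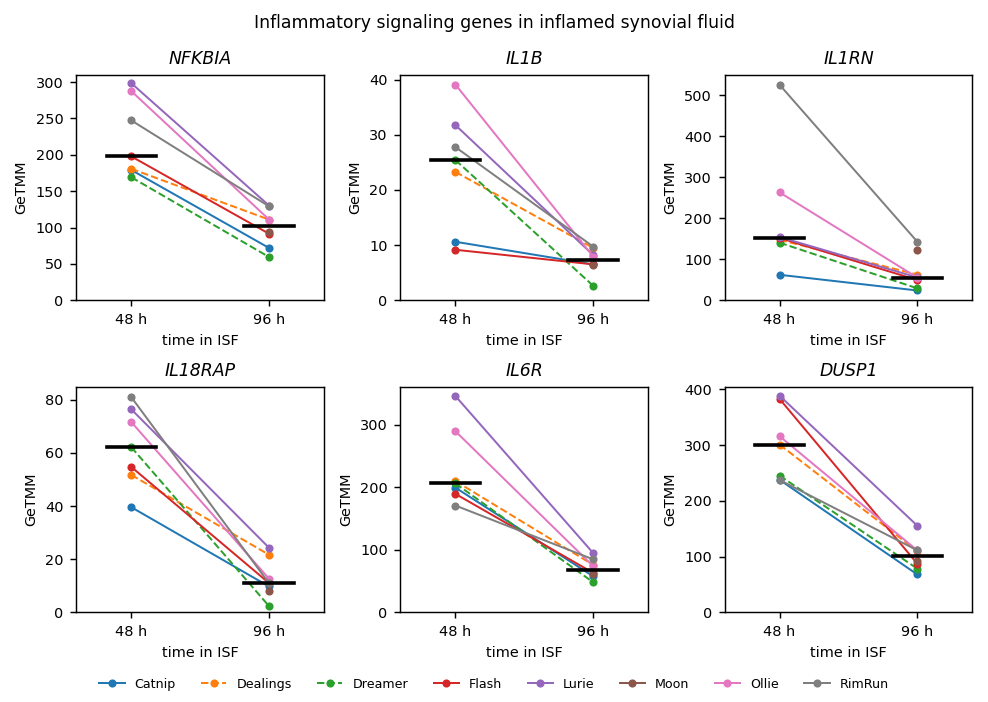
Level in GeTMM (vertical axis, linear, from 0) of 6 genes at 48 and 96 hours in ISF, with 1 point per library, lines joining the libraries of a horse as labelled (dashed for Dealings and Dreamer, whose 96-hour libraries resembled each other's horse), and black bars at the medians of 7 and 8 libraries. Each gene fell in 7 of 7 horses, and the groups did not overlap for NFKBIA, IL18RAP, IL6R and DUSP1.

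Several receptors for other cytokines and chemokines also fell. Of 17 tested, 6 fell and 1 rose, with a median of -0.45. CSF3R, the receptor of granulocyte colony-stimulating factor, lay between 212 and 605 GeTMM (median 380.3) at 48 hours and between 47.4 and 195 GeTMM (median 98.6) at 96 hours, and IL6R, the binding chain of the interleukin-6 receptor, lay between 171 and 346 GeTMM (median 206) at 48 hours and between 48.2 and 94.9 GeTMM (median 68.6) at 96 hours. For both genes all libraries at 96 hours were below all libraries at 48 hours (log2 fold change of -1.97 ± 0.47 (SE), FDR = 0.00154 for CSF3R, and log2 fold change of -1.69 ± 0.31 (SE), FDR = 3.28e-05 for IL6R). IFNGR2, a chain of the interferon gamma receptor, fell without overlap (log2 fold change of -1.55 ± 0.17 (SE), FDR = 1.5e-09). CCR7, which guides leukocytes to lymph nodes, lay between 7.09 and 26.6 GeTMM (median 10.7) at 48 hours and between 1.81 and 15.4 GeTMM (median 4.81) at 96 hours and overlapped (log2 fold change of -1.11 ± 0.33 (SE), FDR = 0.0101). The call of CCR7 was lost when Dreamer was left out (FDR = 0.081). CSF1R, the receptor for the growth factor of macrophages, was the gene that rose (log2 fold change of 1.03 ± 0.30 (SE), FDR = 0.00928). Its call was lost without the 96-hour libraries labelled Dealings and Dreamer (FDR = 0.0612) but not with the horse as a block as well (FDR = 0.00118).

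Among the chemokines and cytokines themselves, of 18 tested, 3 rose (16.7%) and 1 fell (5.56%), and the median was 0.10. Over all genes, 8.54% rose and 10.4% fell. CCL2 (ENSECAG00000023949), which attracts monocytes, lay between 839.6 and 4899 GeTMM (median 1142) at 48 hours and between 1174 and 7472 GeTMM (median 4786) at 96 hours. It rose in 7 of 7 horses, with the highest value in the library of Lurie, and the groups overlapped (log2 fold change of 1.41 ± 0.38 (SE), FDR = 0.00528). CCL8, a related monocyte chemokine, lay between 19.1 and 236 GeTMM (median 69.1) at 48 hours and between 119.6 and 692 GeTMM (median 268) at 96 hours (log2 fold change of 2.00 ± 0.49 (SE), FDR = 0.00207). CXCL16, a chemokine and scavenger receptor, rose from 567 ± 135 GeTMM (SD, n = 7) to 899.5 ± 117 GeTMM (SD, n = 8; FDR = 0.00234). CCL22 was lower (-1.52, FDR = 0.00845), although in 6 of 7 horses only and not without Flash or Dreamer (FDR = 0.078). The horse in which it rose was Dealings as labelled (1.13).

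TNF lay between 6.89 and 12.8 GeTMM (median 8.84) at 48 hours and between 4.17 and 14.2 GeTMM (median 12.1) at 96 hours and did not pass the test (log2 fold change of 0.13 ± 0.23 (SE), FDR = 0.77). IL10, an anti-inflammatory cytokine, lay between 3.35 and 9.89 GeTMM (median 5) at 48 hours and between 3.98 and 19.1 GeTMM (median 7.14) at 96 hours (log2 fold change of 0.57 ± 0.37 (SE), FDR = 0.314). IL6 was at 0 to 0.181 GeTMM at 48 hours and at 0 to 0.296 GeTMM at 96 hours, which is at most 4 reads per library, so that no change could be seen at this depth. The neutrophil chemokine CXCL8 had a log2 fold change of -1.06 that did not pass the test (FDR = 0.107).

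Immediate-early genes, which are switched on within minutes of a stimulus and encode transcription factors and phosphatases that shape the response, were lower in 12 of 24 cases and higher in none (0 also at an unadjusted p under 0.05 by limma and by limma voom), with a median of -0.60. DUSP1, a phosphatase that turns off MAP kinases, lay between 238 and 389 GeTMM (median 301) at 48 hours and between 68.1 and 156 GeTMM (median 101) at 96 hours, without overlap (log2 fold change of -1.57 ± 0.23 (SE), FDR = 7.62e-07). DUSP2, of the same family, fell in 7 of 7 horses (log2 fold change of -2.07 ± 0.30 (SE), FDR = 6.52e-07). FOS, a subunit of AP-1, lay between 20.3 and 109.7 GeTMM (median 68.1) at 48 hours and between 11.6 and 32.3 GeTMM (median 23.6) at 96 hours, with overlap (log2 fold change of -1.37 ± 0.35 (SE), FDR = 0.00305). KLF6 (-1.31, FDR = 5.48e-06) and JUNB (-0.72, FDR = 0.000851) fell, whereas ATF3 (0.60, FDR = 0.221), MYC (-0.01, FDR = 0.978) and NR4A1 (0.56, FDR = 0.245) did not pass the test.

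Genes of prostaglandin and leukotriene synthesis changed in 3 of 15 cases, 1 higher and 2 lower (4 lower without Dealings and 1 without Dreamer), against 19% called over all genes. PTGS2, cyclooxygenase-2, was low throughout and lay between 0.914 and 3.04 GeTMM (median 2.46) at 48 hours and between 0.194 and 0.766 GeTMM (median 0.346) at 96 hours. The groups did not overlap, and the change is understated on this scale (log2 fold change of -1.12 ± 0.26 (SE), FDR = 0.00105). PLA2G4A, which releases arachidonic acid from membranes, fell (-0.72, FDR = 0.0142). PTGIR, the prostacyclin receptor, rose from 1.85 ± 1.55 to 6.49 ± 3.36 GeTMM (SD, n = 7 and 8; FDR = 0.00103). PTGES stood at 0 to 0.21 GeTMM at 48 hours and 0 to 0.324 GeTMM at 96 hours, too few reads for a comparison.

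Toll-like receptors and MAP kinases included 2 genes that rose and 6 that fell of 20. MAPK13 (-1.39, FDR = 0.0119), MAPK14 (-0.79, FDR = 0.0164) and MAPK3 (-0.47, FDR = 0.0155), kinases of the p38 and ERK branches, were lower. TLR3, a receptor for double-stranded RNA, lay between 1.33 and 4.02 GeTMM (median 2.31) at 48 hours and between 4.04 and 19.6 GeTMM (median 8.87) at 96 hours, without overlap (log2 fold change of 1.60 ± 0.32 (SE), FDR = 0.000174), and TLR8, a receptor for single-stranded RNA, was higher (log2 fold change of 0.70 ± 0.25 (SE), FDR = 0.0415). Without the libraries labelled Dealings and Dreamer at 96 hours, MAPK13 (FDR = 0.0592), MAPK14 (FDR = 0.0515) and TLR8 (FDR = 0.106) were not called, and 1 gene rose and 3 fell. With the horse as a block as well, 2 rose and 6 fell. In the main test, 3 also fell when the horse Dreamer was left out. The symbol CD14 stood for 2 low entries, neither of them called.

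Of the 11 growth factors tested, 3 of the epidermal growth factor family fell. EREG lay between 1.06 and 28.5 GeTMM (median 18.5) at 48 hours and between 0 and 8.08 GeTMM (median 2.29) at 96 hours, with overlap (log2 fold change of -1.88 ± 0.44 (SE), FDR = 0.0011). TGFA lay between 12.5 and 26.9 GeTMM (median 14.1) at 48 hours and between 3.18 and 11.4 GeTMM (median 5.94) at 96 hours, without overlap (log2 fold change of -1.25 ± 0.34 (SE), FDR = 0.005). AREG was lower as well (-0.88, FDR = 0.00377), and HGF, hepatocyte growth factor, was higher (log2 fold change of 1.00 ± 0.27 (SE), FDR = 0.00592). The other 7 did not pass, among them HBEGF, of the epidermal growth factor family (0.60, FDR = 0.0961), and IGF1 (0.65, FDR = 0.543).

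Interferon-stimulated genes, by contrast, were spread around 0. Of 23 tested, 1 fell and none rose (0 higher at an unadjusted p under 0.05 by limma, and 0 by limma voom), with a median of -0.01. The gene that fell was IRF1 (log2 fold change of -1.42 ± 0.37 (SE), FDR = 0.00403), a transcription factor that interferon gamma and NF-kappaB both induce, and its groups did not overlap. Other genes of the list moved far in either direction within single horses, so that the median near 0 does not mean that they were unchanged in each horse. MX1 changed by -2.27 in Ollie and 1.64 in Flash, and ISG15 by -4.41 in Ollie. As labelled, MX1 changed by 4.87 in Dreamer and -3.08 in Dealings, and ISG15 by 1.97 in Dreamer. The values of Dreamer and Dealings may each compare libraries of different horses, so they cannot show a change within a horse.

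Several genes of lipid handling rose. Of 19 genes for uptake, storage and efflux of lipid, 8 rose and none fell (1 lower at an unadjusted p under 0.05 by limma, and 0 by limma voom), against 8.54% higher over all genes, and the median was 0.67. The list does not hold DGAT2 and MOGAT2, the acyltransferases of triglyceride synthesis described above, which fell. TREM2 (ENSECAG00000015270), a receptor for lipid and lipoprotein on macrophages, lay between 141 and 287 GeTMM (median 263) at 48 hours and between 357 and 808 GeTMM (median 533) at 96 hours. All 8 libraries at 96 hours exceeded all 7 at 48 hours (log2 fold change of 1.35 ± 0.27 (SE), FDR = 0.000126). PLTP, which transfers phospholipid between lipoproteins, lay between 105 and 383 GeTMM (median 195) at 48 hours and between 441 and 1079 GeTMM (median 653) at 96 hours, again without overlap (log2 fold change of 1.80 ± 0.30 (SE), FDR = 5.78e-06). LPL, the lipase that releases fatty acids from lipoproteins, lay between 28.7 and 251 GeTMM (median 42.2) at 48 hours and between 51.2 and 723 GeTMM (median 189.8) at 96 hours, with overlap and with the highest value in the library labelled Lurie (log2 fold change of 1.77 ± 0.50 (SE), FDR = 0.00705).

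APOE, the main apolipoprotein secreted by macrophages, lay between 1373 and 4581 GeTMM (median 2342) at 48 hours and between 3832 and 7841 GeTMM (median 5031) at 96 hours (log2 fold change of 1.07 ± 0.36 (SE), FDR = 0.0262), and CD36, a scavenger receptor for oxidized lipoprotein and fatty acids, lay between 456 and 883 GeTMM (median 604) at 48 hours and between 661 and 1453 GeTMM (median 1175) at 96 hours (log2 fold change of 0.79 ± 0.25 (SE), FDR = 0.019). The groups of both genes overlapped. Without the libraries labelled Dealings and Dreamer at 96 hours the FDR was 0.052 for APOE and 0.0546 for CD36, and 5 of the 19 genes rose, as many as without the horse Dreamer or the horse Lurie. With the horse as a block and without these libraries, 7 of the 19 rose. LIPA, the lysosomal lipase (0.87, FDR = 0.0213), NPC2, which carries cholesterol out of lysosomes (0.80, FDR = 0.000151), and SCARB1 (0.73, FDR = 0.000169) were higher. The cholesterol exporters ABCA1 (0.67, FDR = 0.303) and ABCG1 (-0.66, FDR = 0.323) did not pass the test.

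Lysosomal enzymes and membrane proteins rose in 15 of 30 cases and fell in 1, with a median of 0.56. GLB1, the lysosomal beta-galactosidase, lay between 79.6 and 122 GeTMM (median 105) at 48 hours and between 162 and 221 GeTMM (median 189) at 96 hours, without overlap (log2 fold change of 0.87 ± 0.14 (SE), FDR = 4.34e-06). CTSC, a cathepsin that activates serine proteases, rose from 249 ± 128 to 722 ± 541 GeTMM (SD, n = 7 and 8; FDR = 0.00727). CTSZ (0.85, FDR = 0.000481) and GAA, the acid alpha-glucosidase (0.90, FDR = 0.00224), were higher too. The gene that fell was TFEB, a transcription factor that drives lysosomal genes (-0.50, FDR = 0.048), and its call was kept only without Moon when 1 horse at a time was left out and was lost without the libraries labelled Dealings and Dreamer, also with the horse as a block (FDR = 0.168, blocked 0.0651). None of the 16 subunits of the proton pump of lysosomes passed the test (0 by limma and by limma voom, 2 at an unadjusted p under 0.05), with log2 fold changes between -0.24 and 0.74. With the horse as a block 2 of them rose, and 1 when the libraries labelled Dealings and Dreamer were also left out. In the main test, 1 rose without Flash or Moon.

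Genes for the clearance of apoptotic cells rose in 5 of 12 cases and fell in none (2 lower at an unadjusted p under 0.05 by limma, and 0 by limma voom), with a median of 0.83. ITGB5, an integrin chain that binds apoptotic cells through a bridging protein, lay between 24.8 and 65.6 GeTMM (median 34.3) at 48 hours and between 53.8 and 161 GeTMM (median 126) at 96 hours. Its groups overlapped slightly, and it rose in 7 of 7 horses (log2 fold change of 1.64 ± 0.22 (SE), FDR = 7.56e-08). LRP1, a large endocytic receptor (log2 fold change of 1.07 ± 0.24 (SE), FDR = 0.0006), MERTK, a receptor kinase for phosphatidylserine bridges (log2 fold change of 1.02 ± 0.25 (SE), FDR = 0.0023), STAB1 (1.46, FDR = 0.027) and C1QC, a chain of complement C1q (1.83, FDR = 0.0328), were the others. Without the libraries labelled Dealings and Dreamer at 96 hours, STAB1 (FDR = 0.128) and C1QC (FDR = 0.0863) were not called, and 3 of the 12 rose without the horse Dealings, Dreamer or Ollie. With the horse as a block and without the libraries labelled Dealings and Dreamer, 6 of the 12 rose.

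**Figure D2:**
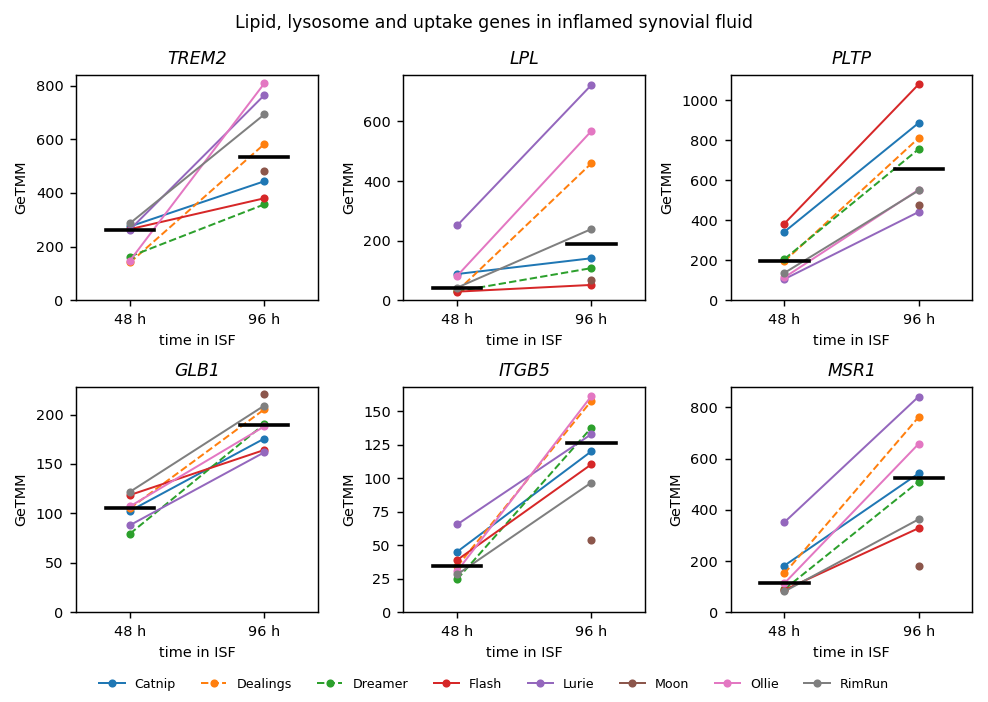
Level in GeTMM (vertical axis, linear, from 0) of 6 genes at 48 and 96 hours in ISF, with 1 point per library, lines joining the libraries of a horse as labelled (dashed for Dealings and Dreamer), and black bars at the medians of 7 and 8 libraries. Each gene rose in 7 of 7 horses, without overlap of the groups for TREM2, PLTP and GLB1.

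Nuclear receptors and their coactivators split in direction, with 3 higher and 6 lower of 17. PPARG lay between 14.1 and 30.2 GeTMM (median 22.7) at 48 hours and between 22.3 and 35.5 GeTMM (median 29) at 96 hours, with overlap (log2 fold change of 0.44 ± 0.15 (SE), FDR = 0.0347), and its call was not kept without Dreamer (FDR = 0.25). NR1H3, the LXR alpha receptor, rose (0.67, FDR = 0.0164), as did PPARGC1A, a PPAR coactivator that was low at both times (0.85, FDR = 0.0207). The acetyltransferases EP300 (-0.79, FDR = 0.00645) and CREBBP (-0.77, FDR = 0.00189) fell, and so did the coactivator NCOA2, which lay between 6.7 and 27 GeTMM (median 15.5) at 48 hours and between 6.51 and 10.8 GeTMM (median 9.71) at 96 hours (log2 fold change of -0.69 ± 0.23 (SE), FDR = 0.0266), and RXRA (-0.40, FDR = 0.0386). Without the libraries labelled Dealings and Dreamer at 96 hours none of the 17 rose (3 at an unadjusted p under 0.05 by limma) and 5 fell. With the horse as a block as well, 2 rose and 6 fell. The counts of this list also changed when 1 horse, as labelled, was left out. They were 1 higher and 3 lower without Dreamer, 0 higher (3 at an unadjusted p under 0.05 by limma) and 2 lower without Lurie, and 2 lower without Ollie.

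The study named regulators for this interval from these libraries, TREM2, NCOA2, TGFA, MAPK3, NFKB2, RELA and IL1B among them, so that their changes are not independent evidence of a direction. Of these 7, TREM2 rose and the other 6 fell. Of the 20 transcription factors of monocytes and macrophages tested, 4 fell, MYB, CEBPB (-1.20, FDR = 0.000208), BCL6 (-0.93, FDR = 0.000111) and CEBPD (-0.63, FDR = 0.0254). MYB, which marks immature hematopoietic cells, had a log2 fold change of -1.30 ± 0.43 (SE), FDR = 0.0241, and was not called without the 96-hour libraries labelled Dealings and Dreamer (FDR = 0.219). Without the horse Dreamer, 2 of the 20 fell.

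Of the metabolic lists, mitochondrial fatty-acid oxidation had 6 genes that rose and 1 that fell of 19, with a median of 0.38, and 3 rose when Lurie was left out. ACAA2, which carries out the last step of the cycle, lay between 21.5 and 27.1 GeTMM (median 24.3) at 48 hours and between 29.8 and 49.9 GeTMM (median 37.8) at 96 hours, without overlap (log2 fold change of 0.62 ± 0.13 (SE), FDR = 0.000395). ACSL4, which activates arachidonic acid, fell (-1.05, FDR = 0.000395). Respiratory chain subunits had a positive log2 fold change in 43 of 44 cases, but the values were small, with a median of 0.19, and 2 passed the test (6 without Moon, 1 without Lurie, Ollie or RimRun and 0 without Dreamer, where limma gave 2 at an unadjusted p under 0.05), SDHC (0.32, FDR = 0.0152) and NDUFS1 (0.33, FDR = 0.0251). Glycolysis had 3 genes that rose (15.8%) and 1 that fell (5.26%) of 19, against 8.54% and 10.4% over all genes. PFKFB3, whose product activates glycolysis, rose (log2 fold change of 0.81 ± 0.19 (SE), FDR = 0.0011), and SLC16A3, a lactate exporter, fell (log2 fold change of -1.06 ± 0.34 (SE), FDR = 0.0212). The call of SLC16A3 was lost without Dreamer, Ollie or RimRun and without the 96-hour libraries labelled Dealings and Dreamer (FDR = 0.0527, blocked 0.0144). Of 26 sterol synthesis genes 2 rose and 2 fell (7.69% each, below the shares over all genes), and the median was 0.04. HMGCS1 (-0.30, FDR = 0.602) did not pass.

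Few stress and presentation genes were called, beside 19% called over all genes. DDIT3, a transcription factor of the unfolded protein response, lay between 219 and 712 GeTMM (median 294) at 48 hours and between 66.6 and 215 GeTMM (median 117) at 96 hours, without overlap (log2 fold change of -1.64 ± 0.27 (SE), FDR = 6.49e-06), and XBP1 fell (-0.42, FDR = 0.0192), whereas the other 19 of 21 such genes did not pass (4 fell without Moon and 1, DDIT3, without Dreamer or RimRun). Without the 96-hour libraries labelled Dealings and Dreamer, XBP1 had an FDR of 0.0579 (blocked 0.0185). SOD2, the mitochondrial superoxide dismutase, fell (-1.21, FDR = 0.00904) and PRDX1 rose (0.82, FDR = 0.0226), the 2 called of 18 antioxidant genes (4 higher and 4 lower without Moon). The call of PRDX1 was lost without Dreamer, Flash or Ollie and without the 96-hour libraries labelled Dealings and Dreamer (FDR = 0.134, blocked 0.097). ICAM1, an adhesion molecule, lay between 15.7 and 42 GeTMM (median 19.4) at 48 hours and between 30.7 and 90.5 GeTMM (median 59.7) at 96 hours (log2 fold change of 1.33 ± 0.21 (SE), FDR = 1.97e-06), and the costimulatory CD86 rose (log2 fold change of 0.78 ± 0.18 (SE), FDR = 0.00082). NLRC5, an activator of class I genes, fell (-0.65, FDR = 0.014; not called without Dealings or Ollie), and the other 12 of 15 presentation genes did not pass.

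**Figure D3:**
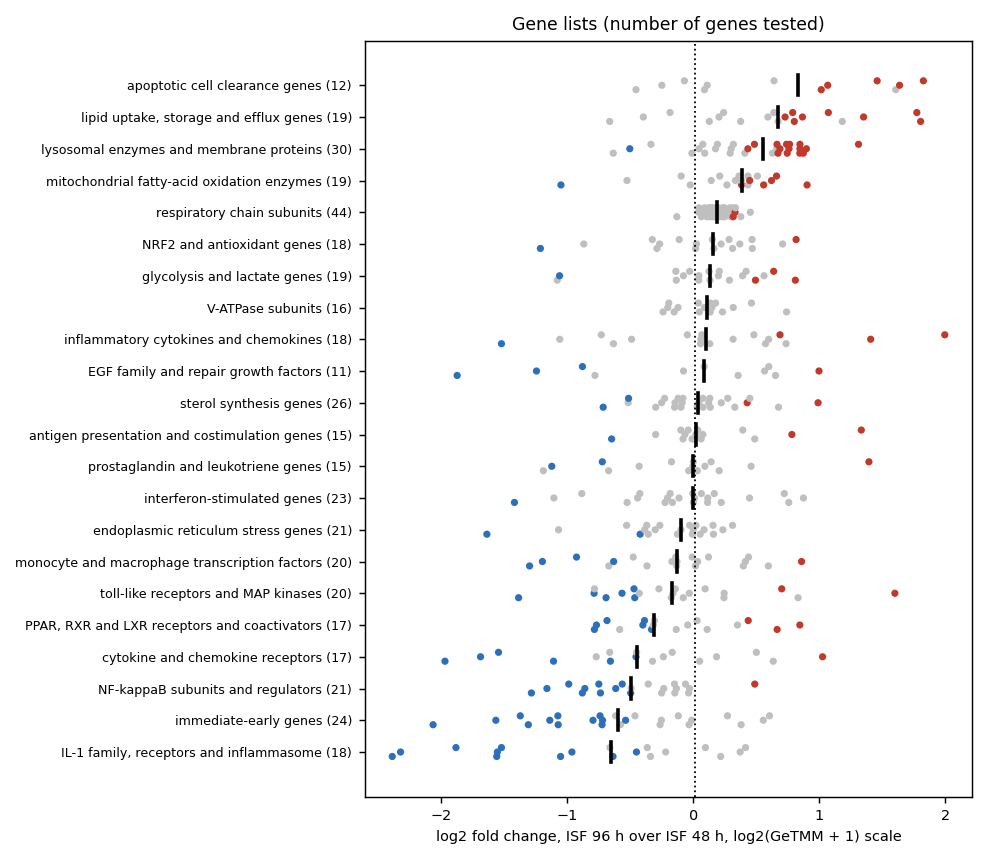
Log2 fold change from 48 to 96 hours in ISF (horizontal axis, log2(GeTMM + 1) scale) of each gene tested in 22 gene lists, red where higher and blue where lower at an FDR under 0.05 and gray otherwise, with the median of each list as a black bar and the median of all 14570 genes as a dotted line. The medians run from -0.65 in the interleukin-1 family to 0.83 in the genes for clearance of apoptotic cells.

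All 7 macrophage markers had a positive log2 fold change. Of them 3 rose (MSR1, TREM2 and CD68; 5 without Moon), and the summed level of the 7 was 14796 to 27364 GeTMM at 48 hours and 13766 to 100390 GeTMM at 96 hours, compared with 184 to 307 GeTMM before culture. MSR1, a scavenger receptor, lay between 82 and 352 GeTMM (median 114) at 48 hours and between 182 and 842 GeTMM (median 526.1) at 96 hours (log2 fold change of 1.83 ± 0.32 (SE), FDR = 1.67e-05), and CD68, a lysosomal membrane protein, rose from 1921 ± 343 to 3038 ± 490.2 GeTMM (SD, n = 7 and 8; FDR = 0.000479). SPP1, osteopontin, dominated the sum. It lay between 8860.4 and 20341 GeTMM (median 14535) at 48 hours and between 6058 and 90807 GeTMM (median 41495) at 96 hours, was higher in 5 of 7 horses and lower in Catnip and Flash, and did not pass the test (log2 fold change of 0.98 ± 0.61 (SE), FDR = 0.287).

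The scavenger receptor CD163 lay between 166 and 1138 GeTMM (median 532) at 48 hours and between 370.3 and 2258 GeTMM (median 1055) at 96 hours, and the mannose receptor MRC1 lay between 25.3 and 154 GeTMM (median 62.4) at 48 hours and between 44.2 and 283 GeTMM (median 158) at 96 hours. Neither passed the main test (FDR = 0.164 for CD163 and 0.081 for MRC1), in which differences between horses count as error. With the horse as a block both were called, with an FDR of 0.00273 for CD163 and 0.0028 for MRC1, and without the libraries labelled Dealings and Dreamer the blocked FDR was 0.0212 and 0.0246. GPNMB did not pass either way (FDR = 0.622, blocked 0.569).

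Markers of other cell types of bone marrow also moved. Of 6 neutrophil precursor markers listed, the granule proteins MPO, ELANE and AZU1 of promyelocytes fell and the others did not pass. MPO, myeloperoxidase, lay between 221 and 1044 GeTMM (median 724) at 48 hours and between 29.4 and 317 GeTMM (median 132) at 96 hours, and was lower in 7 of 7 horses with overlap (log2 fold change of -2.42 ± 0.68 (SE), FDR = 0.00733). ELANE, neutrophil elastase, lay between 230.3 and 1525 GeTMM (median 725) at 48 hours and between 13.6 and 642 GeTMM (median 218) at 96 hours (log2 fold change of -2.14 ± 0.75 (SE), FDR = 0.0353), and AZU1, azurocidin, lay between 352 and 2126 GeTMM (median 1098) at 48 hours and between 54.4 and 847 GeTMM (median 304) at 96 hours (log2 fold change of -2.13 ± 0.77 (SE), FDR = 0.0399). Without the libraries labelled Dealings and Dreamer at 96 hours, none of these was called (FDR = 0.0747, 0.178 and 0.207), while with the horse as a block and without these libraries all 3 were (FDR = 0.00082, 0.00658 and 0.00387). Leaving out 1 horse gave 0 calls without Dreamer (3 at an unadjusted p under 0.05 by limma) and 1 without Flash, Lurie, Ollie or RimRun. LTF and OLFM4, markers of later precursors, had log2 fold changes of 0.24 and 0.13 (FDR = 0.917 and 0.953). The summed level of the 6 was 1087 to 6083 GeTMM at 48 hours and 209.8 to 4973 GeTMM at 96 hours.

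NCR1, an activating receptor of natural killer cells, lay between 130.2 and 297 GeTMM (median 227) at 48 hours and between 24.1 and 79 GeTMM (median 53.1) at 96 hours, without overlap (log2 fold change of -2.18 ± 0.37 (SE), FDR = 1.4e-05), and PRF1, perforin, fell as well (-0.78, FDR = 0.0285). The call of PRF1 was lost without Catnip, Dealings or Lurie. The other 5 of 7 natural killer cell markers did not pass, but with the horse as a block 5 of the 7 fell, KLRK1 (FDR = 0.00626), KLRD1 (FDR = 0.0182) and GZMA (FDR = 0.0448) among them, and 4 of these fell without the libraries labelled Dealings and Dreamer, where GZMA had a blocked FDR of 0.102. The summed level of the 7 was 85.9 to 149 GeTMM before culture, 149 to 316 GeTMM at 48 hours and 30.6 to 83.0 GeTMM at 96 hours. Most of the sum at 48 and 96 hours was NCR1. The mean log2 level of the 7, by contrast, was 3.16 before culture, 2.39 at 48 hours and 1.58 at 96 hours. None of the 5 T cell, 7 B cell and plasma cell, 4 erythroid, 4 megakaryocyte and 5 stromal markers tested was called, 0 of 25 by limma and by limma voom, and 3 were lower at an unadjusted p under 0.05. With the horse as a block CD3E of T cells (FDR = 0.0474), AHSP of erythroid cells (FDR = 0.0471) and GP9 of megakaryocytes (FDR = 0.00713) were lower, and without the libraries labelled Dealings and Dreamer LCK of T cells (blocked FDR = 0.0454) and GP9 (0.0385). T cell markers summed to 29.8 to 123 GeTMM at 48 hours and 18.7 to 77.6 GeTMM at 96 hours, and B cell and plasma cell markers to 106 to 849 and 95.7 to 348 GeTMM. Erythroid markers summed to 0.91 to 11.8 and 0.46 to 1.95 GeTMM, megakaryocyte markers to 65.2 to 614 and 28.4 to 777 GeTMM, and stromal markers to 0.037 to 0.528 and 0.067 to 4.93 GeTMM, so that fibroblast collagens were at or near 0 in most libraries. The erythroid list does not hold HBA2, the hemoglobin chain described above, which fell in 7 of 7 horses. Of 24 cell cycle genes 1 was called, E2F1, which was higher (log2 fold change of 1.00 ± 0.28 (SE), FDR = 0.00745), and the median was -0.07. The part of these shifts in the changes of the other gene lists was not tested.

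Healthy fluid over the same interval served as the comparison, with 15 libraries of the same horses that share none with the ISF interval. There, 3982 genes changed (27.3%), 1675 higher (11.5%) and 2307 lower (15.8%). Of the 2764 genes called in ISF, 2080 (75.3%) were also called in SF, 2079 of them in the same direction, and these are 52.2% of the genes called in SF. A gene called in 1 fluid only is not thereby shown to differ between them. The difference itself, tested as the change in ISF minus the change in SF, was called for 3 genes (0.0206%), and 806 genes (5.53%) had an unadjusted p under 0.05. With the horse as a block 27 genes were called, and 7 when the libraries labelled Dealings and Dreamer at 96 hours in ISF were also left out.

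The inflammatory and lipid lists moved in both fluids. In SF the NF-kappaB list had 14 lower and 1 higher with a median of -0.65, and the interleukin-1 family 11 lower and 1 higher with a median of -1.04. Lipid genes had 10 higher and 1 lower in SF with a median of 0.84, and lysosomal genes 20 higher and none lower (0 also at an unadjusted p under 0.05 by limma) with a median of 0.78. In these 4 lists no gene was called by limma for a difference between the fluids, and 3 genes, 1 of the interleukin-1 family and 2 lysosomal, had an unadjusted p under 0.05. NFKBIA, for example, had a log2 fold change of -1.45 in SF (FDR = 1.94e-05) against -1.16 in ISF, and TREM2 of 1.55 (FDR = 5.92e-06) against 1.35. Some other lists were less alike. Glycolysis had 0 higher and 5 lower in SF, and 5 of its 19 genes had an unadjusted p under 0.05 for the difference by limma. The same held for 4 of 20 toll-like receptors and MAP kinases and 4 of 20 transcription factors, against 5.53% of all genes. None of these differences was called.

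Of the 3 genes called for a difference, 1 carried a symbol. WNT4, a secreted signaling protein, lay between 0 and 0.931 GeTMM (median 0.377) at 48 hours and between 0 and 0.526 GeTMM (median 0.204) at 96 hours in ISF, and fell in SF (-0.92, FDR = 6.59e-10) but not at an FDR under 0.05 in ISF (-0.20, FDR = 0.205), a difference of 0.72 ± 0.15 (SE; FDR = 0.0487). Its level was below 1 GeTMM in every ISF library, at most 20 reads. ENSECAG00000032497 lay between 2.56 and 6.59 GeTMM at 48 hours and between 0.368 and 1.88 GeTMM at 96 hours in ISF, without overlap, and between 0.991 and 4.28 and between 1.26 and 4.04 GeTMM in SF. Its change was -1.61 in ISF and -0.07 in SF (difference of -1.54 ± 0.30 (SE), FDR = 0.0331). ENSECAG00000028085 lay between 171 and 323 GeTMM at 48 hours and between 85.1 and 572 GeTMM at 96 hours in ISF, whereas in SF it lay between 70.1 and 288 GeTMM and then between 14.3 and 49.9 GeTMM (difference of 2.18 ± 0.45 (SE), FDR = 0.0487).

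Some genes described above had unequal values in the fluids. CCL2 in SF lay between 192 and 577 GeTMM at 48 hours and between 213 and 607 GeTMM at 96 hours, with a log2 fold change of -0.14 there against 1.41 in ISF, but the difference did not pass after adjustment (FDR = 0.648). CCL8 lay between 6.22 and 25.7 GeTMM at 48 hours and between 10.8 and 21.8 GeTMM at 96 hours in SF, with 0.02 against 2.00 (FDR of the difference = 0.65). TLR8 moved in opposite directions, 0.70 in ISF and -0.67 in SF (FDR = 0.04). The difference for TLR8 had an FDR of 0.221 in the main test and of 0.00697 with the horse as a block, and the latter was 0.0212 without the libraries labelled Dealings and Dreamer.

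The neutrophil granule genes that fell in ISF had log2 fold changes in SF of -0.07 for MPO, 0.12 for ELANE and 0.12 for AZU1. The differences between the fluids did not pass after adjustment, with an FDR of 0.733, 0.849 and 0.868. Of the 6 neutrophil precursor markers, 3 had an unadjusted p under 0.05 for the difference by limma, against 5.53% of all genes, and the median difference was -1.30. GPNMB rose in SF (1.34, FDR = 0.000406) and had 0.26 in ISF (FDR of the difference = 0.709), and SPP1 rose in SF (2.52, FDR = 0.00104; FDR of the difference = 1).

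**Figure D4:**
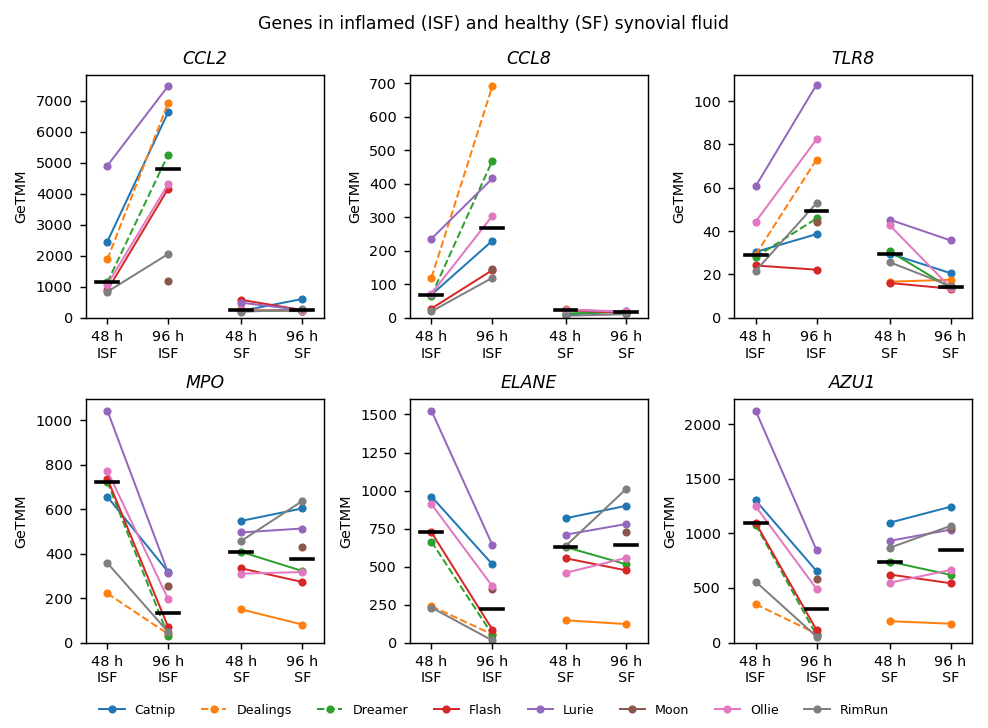
Level in GeTMM (vertical axis, linear, from 0) of 6 genes at 48 and 96 hours in ISF (left of each panel) and SF (right), with 1 point per library, lines joining the libraries of a horse as labelled (dashed for Dealings and Dreamer in ISF), and black bars at the medians. CCL2 and CCL8 rose in ISF in 7 of 7 horses, MPO, ELANE and AZU1 fell in 7 of 7, and none of the 6 differences between the fluids passed an FDR of 0.05 in the main test.

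The overall size of the change was measured as the root mean square difference of log2(GeTMM + 1) over the genes tested between the 48-hour and the 96-hour library of a horse. It was 0.633 ± 0.122 (SD, n = 7) in ISF and 0.628 ± 0.0721 (SD, n = 7) in SF. The largest distance in ISF, 0.875, was that of Dreamer as labelled, and the other 6 horses lay between 0.490 and 0.660. The mean of ISF minus SF was 0.00497, ISF was larger in 2 of 7 horses, and an exact sign-flip permutation test gave p = 0.938, two-sided, where 0.0156 is the smallest p that 7 horses allow. Without Dealings and Dreamer the distances were 0.582 ± 0.0669 in ISF and 0.609 ± 0.0739 in SF (SD, n = 5), with p = 0.5 by the exact test, which cannot go below 0.0625 with 5 horses.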

How the data were processed

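RNA was sequenced from equine BMNC before culture and after culture in SF or ISF, 68 libraries in all. Per the methods and the submitters' processing notes, trimmed reads were mapped with STAR 2.7.2a to EquCab 3.0 and counted per gene, and the authors deposited GeTMM, values of the RPKM kind (reads per kilobase, scaled between libraries with the TMM factors of edgeR), without a logarithm. The authors called differential expression with DESeq2 on counts, which were not used here. The table holds 30371 genes (13157 entries without a symbol), 24065 of them with a value above 0. Whole reads were recovered for all of these 24065 (tolerance 0.02 reads), which gave the depth and an alternative test by limma voom that called 2653 genes. A read on a gene of 1 kb was worth 0.0337 to 0.0979 GeTMM, so values near this rest on single reads.

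Genes at 0.5 GeTMM or more in at least 7 libraries (14570) were tested on log2(GeTMM + 1) with limma 3.58.1 in R 4.3.3 (empirical Bayes with a trend), in 1 fit of 68 libraries with 9 groups, at a Benjamini-Hochberg FDR under 0.05 over all genes. The fit has no term for the horse, so the libraries of a horse count as independent, and p-values measure the spread between libraries. ISF at 96 hours was compared with ISF at 48 hours, the same was done in SF, and the difference of both changes was tested as an interaction. Tested on simulated data with 200 changed genes, the ISF comparison recovered 67% of genes changed by a log2 of 1 and 87% of those changed by 2, with 5.52% false calls, and the interaction 42% and 80%. The simulated libraries were drawn independently, without horse effects or exchanged labels. These shares therefore cannot show how the fit behaves when libraries of a horse are correlated. Distances used Python 3.11.15, numpy 2.4.6 and scipy 1.17.1. The horse check correlated each library with the mean of the other libraries of each horse over 200 genes.

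The pairing comes from the horse: deviations from the group means correlated between the 48-hour and 96-hour ISF libraries of a horse at 0.374 to 0.631 in 5 horses, but at -0.0640 for Dealings and -0.0890 for Dreamer. Blocked values are therefore given with and without these libraries, and nothing was exchanged. Named genes are the 10 highest and 10 lowest changes (called, mean of at least 5 GeTMM in 1 group, same direction in 7 of 7 horses), up to 4 called members per gene list by size of change, genes fixed by name, and symbols called in the interaction. The comparison, its members and the gene lists were chosen with earlier results of these data known. Gene lists received no test of their own. Some named genes are not reported here. Alternatives covered the pseudocount, the filter, the samples fitted, the horse block, leaving out each horse, library weights, scaling, and limma voom on recovered reads. No genome of the authors' build was used here, so no coordinates or sequences are given.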

Additional observations from a re-analysis of the deposited data

Results flagged for a closer look

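The change in ISF minus the change in SF passed an FDR of 0.05 for ENSECAG00000028085 (2.18 on the log2 scale), WNT4 (0.72) and ENSECAG00000032497 (-1.54).

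In 137 groups of 7 or 8 libraries examined for a single value far from the rest, 4 were found, where chance would give about 6.85 (1 group in 20). IL1B at 96 hours was lowest in the library labelled Dreamer, at 1.85 on the log2(GeTMM + 1) scale. The 10 highest genes of that library held 26.7% of its reads, the highest share at 96 hours. ENSECAG00000029964 and ENSECAG00000034602, genes without a symbol that were chosen after their values were seen, together took 17.5% of its reads and at most 0.699% in the other 14 ISF libraries of both times. The mean log2 level of the cell cycle genes at 48 hours was lowest in RimRun, at 4.26. The mean log2 level of the stromal markers at 96 hours was highest in the library labelled Dealings, at 0.939.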

How the results depend on the processing

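The number of genes called in ISF, 2764 in the report (1245 higher, 1519 lower), stayed within 1.5 times under most alternatives. It moved further to 4798 (2384 higher, 2414 lower) with the replicate block of the horse and only the groups compared, to 4941 (2387 higher, 2554 lower) with library weights, and to 636 (217 higher, 419 lower) when a log2 fold change of at least 1 was required. The replicate block alone gave 3496 genes and kept 2746 of the 2764. Leaving out each horse gave 1824 to 3788 genes, 763 to 1820 higher and 1061 to 1968 lower, with the lowest count, 1824, without Dreamer (763 higher).

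The count of genes whose change differed between the fluids, 3 in the report, was 0 with a pseudocount of 0.1, 1 with a filter of 1 GeTMM, 5 with only the groups compared, 27 with the replicate block, 7 with the block and without the 96-hour ISF libraries labelled Dealings and Dreamer, 0 without these libraries and no block, 209 with the block and only the groups compared, 207 with library weights, 0 with limma voom on recovered reads, and 2 or 3 under the other settings. Unadjusted p-values under 0.05 were found for 750, 618 and 724 genes in the limma fits with 0 calls. Leaving out each horse gave 0 to 14 genes, 14 of them without Moon.

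The within-horse distance moved with the scale, to 0.964 in ISF and 0.927 in SF with a pseudocount of 0.1 and to 0.498 and 0.494 without a filter. The difference between the fluids changed sign to -0.0276 without Dealings and Dreamer and ranged from -0.0346 (without Dreamer) to 0.0208 when 1 horse was left out (-0.0121 without Flash), and no setting passed the exact test. Of 120 named genes none changed direction while called, 16 were not called, 70 of the others were called under each alternative run (up to 22), and 21 lost the call without the 96-hour libraries labelled Dealings and Dreamer (4 with the block as well). Among the named genes, the replicate block added CD163 and MRC1 and removed no call. The cause of these shifts was not tested. Values near 0.1 GeTMM rest on a few reads, which limits IL6, PTGES, WNT4 and the erythroid and stromal markers.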
